A study of Mus musculus with 6 samples.

Results

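The regulators of mitochondrial apoptosis examined here were 9 genes given by name, Bcl2, Bcl2l1, Mcl1, Bax, Bak1, Bid, Bcl2l11, Apaf1 and Casp8, and their members were all array probes annotated to 1 of these symbols alone. Of the 45281 probes on the array, 26 met this rule and covered 8 of the 9 genes. No probe was annotated to Bax by symbol, Entrez number or RefSeq transcript, and Bax was not analysed here. RefSeq on GRCm38.p6 places Bcl2 and Casp8 on chromosome 1, Bcl2l1 and Bcl2l11 on 2, Mcl1 on 3, Bid on 6, Apaf1 on 10 and Bak1 on 17. RNA came from splenic CD11b+Gr-1high cells, the gate in which granulocytic myeloid-derived suppressor cells are found, of female BALB/c mice in 3 groups with 2 arrays each. The WT group was made up of wild type mice without a tumor. For the G-CSF group the growth factor of granulocytes, recombinant G-CSF, was given at 10 µg on each of 5 consecutive days. In the 4T1-TB group 50000 cells of 4T1, a BALB/c mammary carcinoma line, had been injected into a mammary gland, and tumors measured above 1000 mm3. Per the paper the mice were 6 to 8 weeks old and the 2 arrays of a group are biologic replicates, but how many mice gave each RNA is not given in the sources used here. The model thus holds 1 strain, 1 sex and 1 tumor line, and each array averages over a sorted population, so that fewer cells of a type and less RNA per cell cannot be told apart.

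In the mitochondrial pathway of apoptosis, proteins of the BCL-2 family decide whether the outer mitochondrial membrane stays intact. The survival proteins encoded by Mcl1, Bcl2 and Bcl2l1 (BCL-XL) bind and restrain the pore formers encoded by Bak1 and Bax and the BH3-only proteins that trigger them, among them BIM (encoded by Bcl2l11) and BID. Once cytochrome c leaks out, it binds APAF1, which assembles into the apoptosome and activates caspase-9. Caspase-8 (Casp8) starts the death receptor route and feeds it into the mitochondrial one by cleaving BID. Neutrophils are short-lived cells that die by apoptosis. In mice MCL-1 is needed for their survival, BIM promotes their death, and G-CSF prolongs their life.

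At least 1 probe each of Apaf1 and Casp8 was higher, and at least 1 of Bcl2l11 lower, in cells of 4T1 tumor-bearing and of G-CSF-treated mice than in WT cells, while those of Bcl2l1 and Bak1 lay at the background. Values are normalized log2 intensities. A signal with a detection p under 0.05 was taken as detected, and a probe had to reach this on 2 or more of the 6 arrays to count. By this rule 12 of the 26 member probes, of 6 genes, were detected, against 11527 of all 45281 probes. These were the 1 probe of Mcl1, 1 of 9 of Bcl2, 3 of 4 of Bcl2l11, both of Bid, all 3 of Apaf1 and both of Casp8. None of the 4 probes of Bcl2l1 and not the 1 probe of Bak1 were detected. Of the 14 remaining probes, 10 were detected on 0 arrays. They lay between 6.63 and 7.18 on the log2 scale, where the lowest detected signal of an array was 7.03 to 7.10, and their largest log2 change in any comparison was 0.22, with a lowest adjusted p of 0.19 (limma). No level of these transcripts was measurable with these probes, which does not show that the transcripts were absent.

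**Figure D1:**
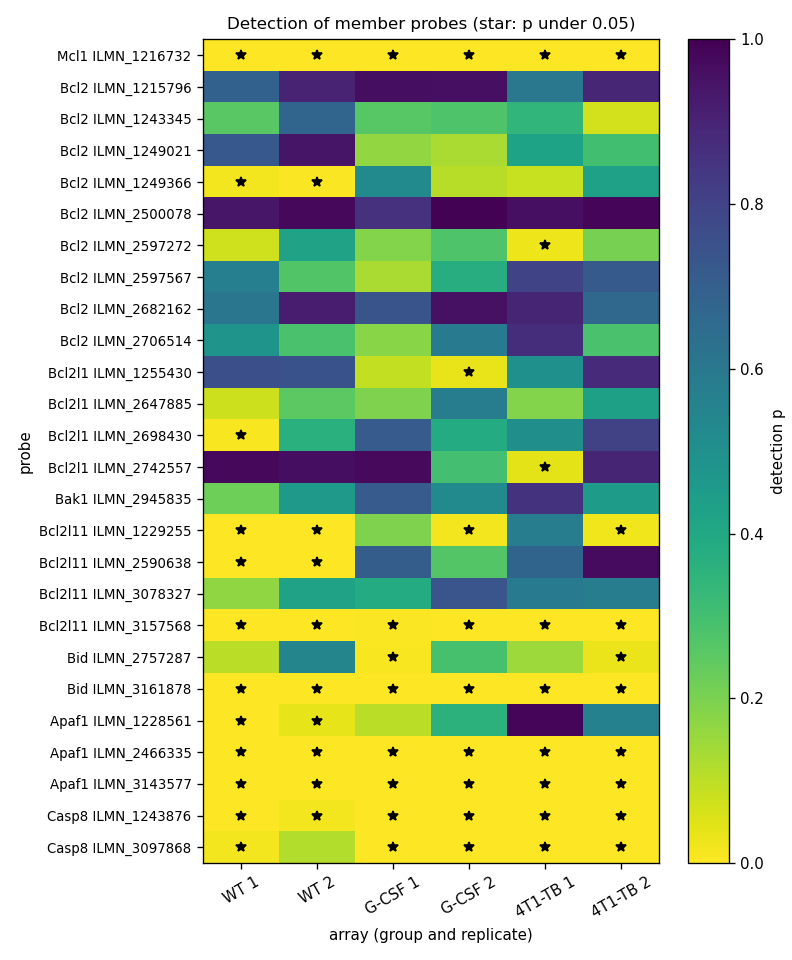
Detection p-value of the 26 member probes (rows) on the 6 arrays (columns), with a star where it was under 0.05. Mcl1, 1 probe of Bcl2l11, 1 of Bid, 2 of Apaf1 and 1 of Casp8 were detected on all 6 arrays, and 10 probes, 7 of them of Bcl2, on 0.

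The start regions of the 3 genes with probes called against WT are shown because the results turn on them. Each sequence is from RefSeq on GRCm38.p6 and runs from 250 bases before to 50 after an annotated start site, on the strand of the gene. Capitals mark matches to 1 of 7 motifs searched on both strands, the GC box GGGCGG, the E2F motifs TTTCCCGC and TTTGGCGC, the FOXO motif GTAAACA, the STAT motif TTCNNNGAA, the C/EBP motif TTGCNNAA and the PU.1 motif GAGGAAG. No printed match overlaps another.
Apaf1, chr10:91082694-91082993, minus strand: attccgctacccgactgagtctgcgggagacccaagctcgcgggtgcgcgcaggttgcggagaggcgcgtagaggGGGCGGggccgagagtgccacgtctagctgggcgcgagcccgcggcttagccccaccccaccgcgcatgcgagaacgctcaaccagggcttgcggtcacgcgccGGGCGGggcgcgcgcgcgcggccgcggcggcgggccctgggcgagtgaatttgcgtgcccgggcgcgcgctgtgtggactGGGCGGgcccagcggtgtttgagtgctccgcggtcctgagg
Casp8, chr1:58802252-58802551, plus strand: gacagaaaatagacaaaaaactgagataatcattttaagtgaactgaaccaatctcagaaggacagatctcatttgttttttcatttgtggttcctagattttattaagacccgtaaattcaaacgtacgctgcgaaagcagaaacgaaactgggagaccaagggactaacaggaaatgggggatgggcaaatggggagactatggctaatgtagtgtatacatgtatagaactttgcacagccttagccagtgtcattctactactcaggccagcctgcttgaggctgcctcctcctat
Bcl2l11, chr2:128125788-128126087, plus strand, 1 of 2 windows of the gene: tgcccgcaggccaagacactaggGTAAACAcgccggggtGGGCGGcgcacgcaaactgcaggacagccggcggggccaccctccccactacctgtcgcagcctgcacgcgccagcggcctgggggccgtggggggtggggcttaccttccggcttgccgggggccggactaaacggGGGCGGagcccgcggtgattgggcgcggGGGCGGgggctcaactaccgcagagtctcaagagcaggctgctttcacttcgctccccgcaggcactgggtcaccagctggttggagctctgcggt
The Apaf1 window holds 3 GC boxes, starting at positions -175, -71 and 9 from the start site, and the Casp8 window holds 0 matches to any of the 7 motifs. The Casp8 window lies inside the locus of the gene, which begins at 58795233. Its letters therefore do not describe the region at the beginning of the locus. The Bcl2l11 window holds 3 GC boxes at -211, -74 and -46 and 1 FOXO match at -227. The other window of this gene, not printed, holds 3 GC boxes and 0 FOXO matches. For comparison, 32851 windows of this length were taken from the same table with 1 chromosome left out. Of these 35.7% held a GC box, 3.65% the FOXO motif, 1.07% and 0.514% the E2F motifs, 8.3% the STAT, 10.8% the C/EBP and 13.6% the PU.1 motif. These matches are descriptions of the letters only. The sequences of the array probes were not used here, so which exon or transcript a probe reads is not given.

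The 6 arrays differed in ways that bear on the members. Neutrophil markers dominated all of them, with 14 of 15 measured markers detected on at least 2 arrays (all but Mmp8) and, for example, S100a8 at 13.70 to 14.27 on the log2 scale, although Itgam, which encodes the CD11b of the gate, was detected on the WT arrays alone. In 4T1-TB 2 of these markers (Ltf, Cebpe) passed the adjusted test as higher than WT and 3 (Itgam, Csf3r, Ngp) as lower. In G-CSF 0 passed as higher and 3 (Itgam, S100a8, Csf3r) as lower. The largest log2 changes of the list were those of Ngp, -4.32 in 4T1-TB and -3.42 in G-CSF, where it did not pass. Csf3r, which encodes the G-CSF receptor, followed with -3.52 and -2.83. The summed normalized intensity of these markers was 65200 and 65730 in WT, 65080 and 54810 in G-CSF, and 74030 and 79880 in 4T1-TB. Erythroid markers stood out on replicate 1 of G-CSF and of 4T1-TB. There Alas2 was at 11.12 and 11.15 against at most 6.93 on the other 4 arrays, and the sum over 6 measured erythroid markers was 11700 and 25470 against 741.4 to 1857. The same 2 arrays also held more detected lymphocyte markers. On each of them 5 of 10 measured T cell markers were detected, against 1 to 2 on the others, and of 8 measured B cell markers 5 and 4, against 1 to 3. Cd79b was at 8.31 and 7.71 there against at most 7.04 elsewhere. The brightest T cell marker, Cd3d, was instead highest on 4T1-TB replicate 2 (11.12, against 10.59 and 10.35 on the 2 arrays). Summed T cell markers were also highest on 4T1-TB replicate 2 (3291, against 2970 and 2532). Summed B cell markers were highest on the WT arrays (1900 and 1850, against 1379 and 1277). That order came from Cd74, the brightest of them, at 9.98 and 9.96 in WT against 7.65 to 8.86 on the other arrays. No other measured B cell marker was highest on a WT array. Of the lymphocyte markers only Cd74, which other antigen-presenting cells also express, passed the test, lower in 4T1-TB than in WT (adjusted p = 0.0339). Of 11 measured macrophage markers 7 were detected, and 3 of them (Vcam1, C1qb, C1qc) were lower in both groups than in WT (adjusted p under 0.05), with sums of 8000 to 8768 on the WT and 8198 to 9916 on the other arrays. In each group 1 monocyte marker (Treml4) was lower than in WT. Of the 6 measured markers of basophils and mast cells, Kit and Hdc were higher than in WT in each group. Mcpt8, Fcer1a, Cpa3 and Ms4a2 lay near background and did not pass, and Hdc was strong on every array, at 12.63 to 13.42. Platelet markers were at background (0 of 5 detected). The part of these cells in the changes of the members was not tested, but the counts of members at an adjusted p under 0.05 are also given without the 2 arrays of high erythroid genes, a setting chosen after seeing the data that leaves 1 array in each of these groups, assumed to vary like the WT arrays.
Unnormalized intensities were also less spread on the WT arrays, with a 95th percentile of 207.2 to 247.3 against 336.1 to 542.7 on the other 4, a difference that quantile normalization removes. When arrays were centred on their medians in its place, the median log2 change of detected probes against WT moved from 0.07 to 0.17 in 4T1-TB and from 0.07 to 0.21 in G-CSF, and 74.3% and 85.7% of called probes were higher in place of 53.3% and 49%. Directions of the called members and of Mcl1 are therefore given under each scaling. The replicates correlated with r = 0.987 in WT, 0.86 in G-CSF and 0.964 in 4T1-TB, across the detected probes, which are not independent replicates.

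Against WT cells, 4 of the 26 member probes rose and 2 fell in 4T1-TB cells. At an adjusted p under 0.05 in limma over all 45281 probes, the 4 that rose were 2 of Apaf1 and both of Casp8, and the 2 that fell were of Bcl2l11. Over all probes 5.49% passed, 2.93% higher and 2.56% lower, and over the detected probes 21.5%. In G-CSF against WT, 2 member probes rose (1 of Apaf1, 1 of Casp8) and the same 2 of Bcl2l11 fell, beside 4.53% of all probes (2.22% higher, 2.31% lower) and 17.8% of the detected ones. A second criterion asked for a 2-fold change and a P under 0.01 before adjustment. By it 4 member probes were higher in 4T1-TB and 0 lower, where 3.51% of all probes passed (1.76% higher, 1.75% lower). In G-CSF 2 were higher and 0 lower, where 2.88% passed (1.32% higher, 1.56% lower). Both comparisons rest on the same 2 WT arrays. The median log2 fold change over all 26 probes was -0.03 in 4T1-TB and -0.01 in G-CSF, beside 0 over all probes and 0.07 over the detected ones. Arrays of the 2 groups did not overlap for 6 higher and 10 lower member probes in 4T1-TB (44.8% of all and 73.9% of detected probes) and for 7 and 9 in G-CSF (41.5% and 62.2%). Without the 2 arrays of high erythroid genes, 7 and 6 member probes passed the adjusted test. Without either WT array, or with median centring, 0 passed in either comparison, and with a floor of 16 after subtraction 1 passed in each. In 4T1-TB 1 passed without 4T1-TB replicate 1 and 2 without replicate 2, and in G-CSF 2 passed without either of those arrays and 7 without G-CSF replicate 2.

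**Figure D2:**
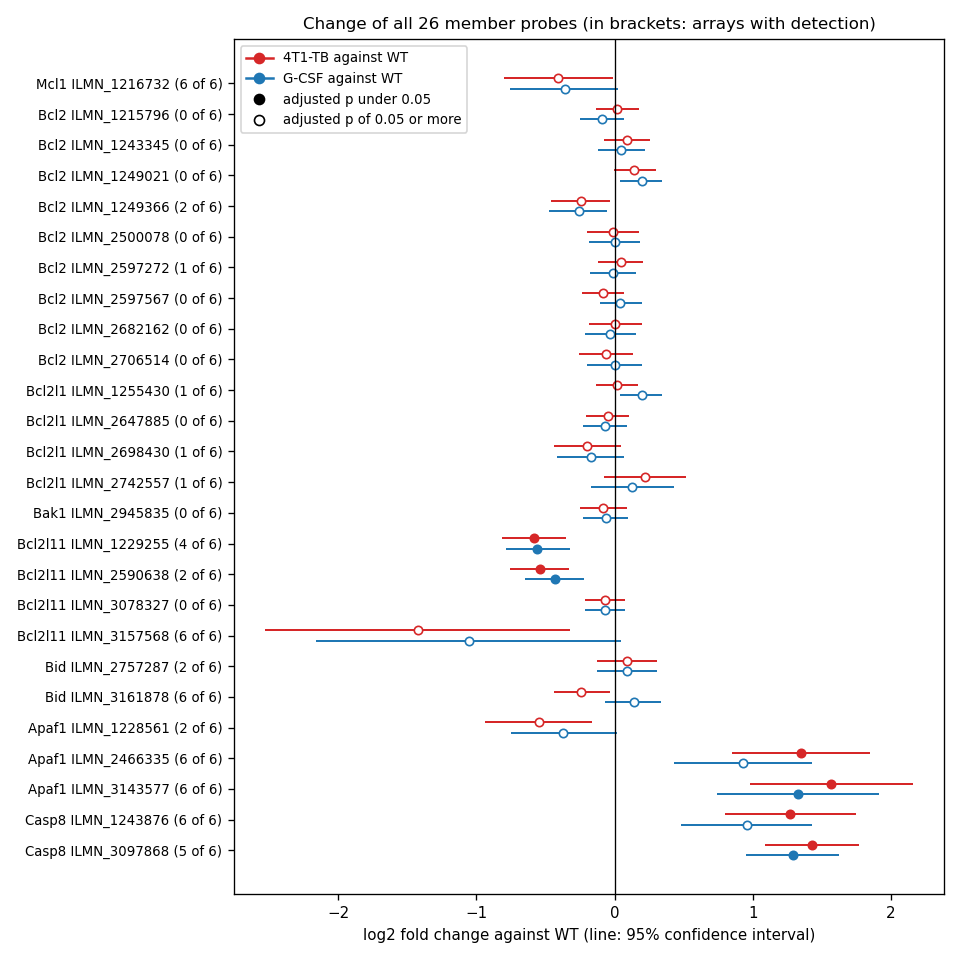
Log2 fold change against WT of all 26 member probes with its 95% confidence interval from limma, in 4T1-TB (red) and G-CSF (blue), filled where the adjusted p was under 0.05. The 4 called probes of Apaf1 and Casp8 lie between 1.27 and 1.57 in 4T1-TB, the 2 called probes of Bcl2l11 lie at -0.58 and -0.54, and most probes of Bcl2 and Bcl2l1 lie near 0.

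Among the survival genes, Mcl1 gave a strong signal on every array and did not pass the test in any comparison. Its probe (ILMN_1216732) was at 10.42 and 10.33 in WT, 10.11 and 9.91 in G-CSF and 9.75 and 10.18 in 4T1-TB, the member probe with the highest mean. Every array of G-CSF and 4T1-TB lay below both WT arrays, and the G-CSF arrays lay between those of 4T1-TB. The log2 fold change was -0.41 in 4T1-TB (SE 0.15, 95% confidence interval -0.79 to -0.02, adjusted p = 0.31) and -0.36 in G-CSF (interval -0.75 to 0.02, adjusted p = 0.407), and with median centring the sign turned to 0.91 and 1.19. Before normalization the intensities ran the other way, with 835.6 and 560 in WT against 1165.1 to 2056.5 on the other arrays. No direction can therefore be given for Mcl1 relative to WT. Between 4T1-TB and G-CSF the difference was -0.04 with an interval of -0.43 to 0.34. Without the 2 arrays of high erythroid genes, the log2 change in G-CSF passed (adjusted p = 0.024), and over its 15 alternatives the adjusted p ran from 0.024 to 0.712.
Genes whose pattern over the 6 arrays came closest to that of Mcl1 were Tmsb4x, which encodes the actin-binding thymosin beta 4 (root mean square distance 0.08 between log2 values centred on their mean), Nadk, the NAD kinase (0.09), and Chrm3, a muscarinic acetylcholine receptor (0.09). They were the nearest of the detected probes of other genes.
Bcl2 had 9 probes, of which 1 (ILMN_1249366) was detected, and on the WT arrays alone. It was at 7.12 and 7.29 in WT, 6.89 and 7.00 in G-CSF and 7.01 and 6.92 in 4T1-TB. Both WT arrays lay above the other 4, which were at background, and the log2 changes of -0.24 and -0.26 in 4T1-TB and G-CSF did not pass (adjusted p = 0.243 and 0.218). Against the lowest detected signal of the arrays it was by group means at least 1.12-fold and at least 1.13-fold lower, bounds that leave out the spread of the arrays. A single array detected each of 3 of the 4 probes of Bcl2l1, a different array each time, and the probes lay between 6.67 and 7.18.

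Of the pore formers, Bak1 had 1 probe, which lay between 6.79 and 6.96 with a lowest detection p of 0.22222, so that its level was below what the array could measure in all 3 groups.

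Bcl2l11, which encodes the BH3-only protein BIM, was lower in both groups than in WT on each of its 3 detected probes, and 2 of them passed the test. The first of these (ILMN_1229255) was at 7.56 and 7.59 in WT, 6.97 and 7.08 in G-CSF and 6.88 and 7.11 in 4T1-TB, detected on both WT arrays and on replicate 2 of the other groups. WT stood above the other 4 arrays without overlap. The log2 fold change was -0.58 in 4T1-TB (SE 0.09, interval -0.81 to -0.36, adjusted p = 0.0232) and -0.56 in G-CSF (interval -0.78 to -0.33, adjusted p = 0.0302).
The other called probe (ILMN_2590638), the only one annotated to another transcript than its fellows, was at 7.26 and 7.40 in WT, 6.85 and 6.95 in G-CSF and 6.86 and 6.72 in 4T1-TB, detected in WT alone. It was at least 1.22-fold lower (adjusted p = 0.0212) in 4T1-TB cells and at least 1.23-fold lower (adjusted p = 0.0498) in G-CSF cells. The G-CSF call stood at the threshold and was lost in 11 of 15 alternatives, among them the replicate block (adjusted p = 0.0928).
The brightest probe of the gene (ILMN_3157568), detected on all arrays, was at 8.91 and 8.94 in WT, 7.15 and 8.60 in G-CSF and 7.61 and 7.40 in 4T1-TB. Its G-CSF arrays stood far apart, with replicate 2 close to WT and replicate 1 below both 4T1-TB arrays. The log2 fold change of -1.42 in 4T1-TB (SE 0.44, interval -2.52 to -0.33) had an adjusted p of 0.195, and that of -1.05 in G-CSF an interval of -2.15 to 0.04 (adjusted p = 0.398). When G-CSF replicate 1 or replicate 2 was left out, the 4T1-TB change passed, and the G-CSF change was -0.33 without replicate 1 (adjusted p = 0.178), also -0.33 without both arrays of high erythroid genes, and -1.77 without replicate 2 (adjusted p = 0.000147). All 3 detected probes kept the lower direction against WT with median centring, neqc background correction and a floor of 16 after subtraction. With median centring, however, the brightest probe changed by -0.53 in 4T1-TB and only -0.11 in G-CSF. Its unnormalized intensity was 315.1 and 253.8 in WT and 233.7 and 156.6 in 4T1-TB. In G-CSF it was 151.9 and 445.6, so that replicate 2 lay above both WT arrays. The remaining probe (ILMN_3078327) was not detected, with -0.07 in each group. By group means the order was WT above G-CSF above 4T1-TB on the 3 detected probes. The G-CSF and 4T1-TB arrays overlapped on each of them, and these 2 groups did not differ beyond their spread with all 6 arrays. The intervals of that difference were -0.25 to 0.20 for ILMN_1229255, -0.31 to 0.09 for ILMN_2590638 and -1.47 to 0.72 for ILMN_3157568.

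Bid, the BH3-only substrate of caspase-8, showed no called change. The brighter of its probes (ILMN_3161878) was at 9.06 and 9.12 in WT, 9.30 and 9.15 in G-CSF and 8.91 and 8.79 in 4T1-TB. The G-CSF arrays lay above and the 4T1-TB arrays below both WT arrays. The log2 fold changes were 0.14 in G-CSF (adjusted p = 0.579) and -0.24 in 4T1-TB (adjusted p = 0.226). Median centring gave 1.54 in G-CSF and 0.89 in 4T1-TB, so that the side of the 4T1-TB arrays turned. Between 4T1-TB and G-CSF the difference was -0.38 (SE 0.08, interval -0.57 to -0.18), with an unadjusted p of 0.00356 in limma and an adjusted p of 1. The dimmer probe (ILMN_2757287) was near background, with 6.89 to 7.12 over the 6 arrays and a change of 0.09 in each group.

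Apaf1, the scaffold of the apoptosome, had the largest called increase of the members, by 2.97-fold in 4T1-TB and 2.51-fold in G-CSF, where the call was less stable. This probe (ILMN_3143577) was at 8.93 and 9.22 in WT, 10.69 and 10.11 in G-CSF and 10.85 and 10.44 in 4T1-TB. Both WT arrays lay below the other 4, and the G-CSF and 4T1-TB arrays overlapped. The log2 fold change was 1.57 in 4T1-TB (SE 0.23, interval 0.99 to 2.15, adjusted p = 0.0203) and 1.33 in G-CSF (interval 0.75 to 1.91, adjusted p = 0.0392). The G-CSF increase passed in 6 of 15 alternatives and missed the threshold with, among others, the replicate block (adjusted p = 0.0564), neqc (0.0662) and the 4 arrays compared alone (0.0781), while the 4T1-TB increase passed in 9. Between 4T1-TB and G-CSF it differed by 0.24 (interval -0.33 to 0.82). Unnormalized intensities ran the same way, with 318.4 and 286.4 in WT against 1370.1 to 3028 on the other arrays.
A second probe (ILMN_2466335) was at 8.21 and 8.34 in WT, 9.51 and 8.90 in G-CSF and 9.71 and 9.55 in 4T1-TB. The 3 groups did not overlap, in the order WT, G-CSF, 4T1-TB. It rose 2.55-fold in 4T1-TB (log2 1.35, SE 0.20, adjusted p = 0.0192), while its 1.9-fold difference in G-CSF (log2 0.93) missed the threshold (adjusted p = 0.0721). The difference between 4T1-TB and G-CSF was 0.42 with an interval of -0.07 to 0.91.
The third probe (ILMN_1228561), annotated to the same transcript, was not higher. It was at 7.54 and 7.12 in WT, 7.00 and 6.93 in G-CSF and 6.68 and 6.89 in 4T1-TB, with detection on the WT arrays alone. By group means it was at least 1.22-fold lower (adjusted p = 0.144) in 4T1-TB cells and at least 1.23-fold lower (adjusted p = 0.391) in G-CSF cells. Neither passed, and the interval of the log2 change in G-CSF, -0.74 to 0.01, included no change. In 4T1-TB the difference passed in 1 of 15 alternatives, a trended and robust prior (adjusted p = 0.0131). Its values stayed below WT with median centring, neqc and the floor of 16 as well, with the G-CSF and 4T1-TB arrays at background.
With median centring, neqc and the floor of 16, the changes of the 2 brighter probes stayed positive (log2 1.75 to 2.77 in 4T1-TB and 1.24 to 2.77 in G-CSF). Without the 2 arrays of high erythroid genes they were 1.37 and 1.27 in 4T1-TB and 1.04 and 0.63 in G-CSF, all past the adjusted test. Closest in pattern to the brightest Apaf1 probe were Bscl2, which encodes the lipid droplet protein seipin (root mean square distance 0.09), Mindy1, a deubiquitinase (0.1), and Noct, which encodes nocturnin (0.1).

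Casp8, the initiator caspase of death receptors, rose on both of its probes in 4T1-TB. Its most strongly called probe (ILMN_3097868) was at 7.12 and 7.03 in WT, 8.54 and 8.19 in G-CSF and 8.60 and 8.40 in 4T1-TB, and was not detected on WT replicate 2. WT lay near background and well below the other 4 arrays, which overlapped each other. The increase was 2.69-fold in 4T1-TB (log2 1.43, SE 0.13, interval 1.10 to 1.76, adjusted p = 0.00481) and 2.44-fold in G-CSF (log2 1.29, interval 0.96 to 1.62, adjusted p = 0.00684). These were the lowest adjusted p-values among the member probes in each comparison.
The other probe (ILMN_1243876), annotated to another transcript of the gene, was at 7.39 and 7.19 in WT, 8.44 and 8.05 in G-CSF and 8.77 and 8.36 in 4T1-TB. It too separated WT from the other 4 arrays. It rose 2.42-fold in 4T1-TB (log2 1.27, SE 0.19, adjusted p = 0.0198), and in G-CSF the 1.94-fold difference (log2 0.96) missed the threshold (adjusted p = 0.0566), though it passed with the replicate block (adjusted p = 0.00911). Between 4T1-TB and G-CSF the probes differed by 0.14 (interval -0.19 to 0.47) and 0.32 (interval -0.15 to 0.78). Both probes stayed higher than in WT under all 15 alternatives, and without the 2 arrays of high erythroid genes they were 1.33 and 1.07 higher in 4T1-TB and 1.11 and 0.76 higher in G-CSF on the log2 scale.

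**Figure D3:**
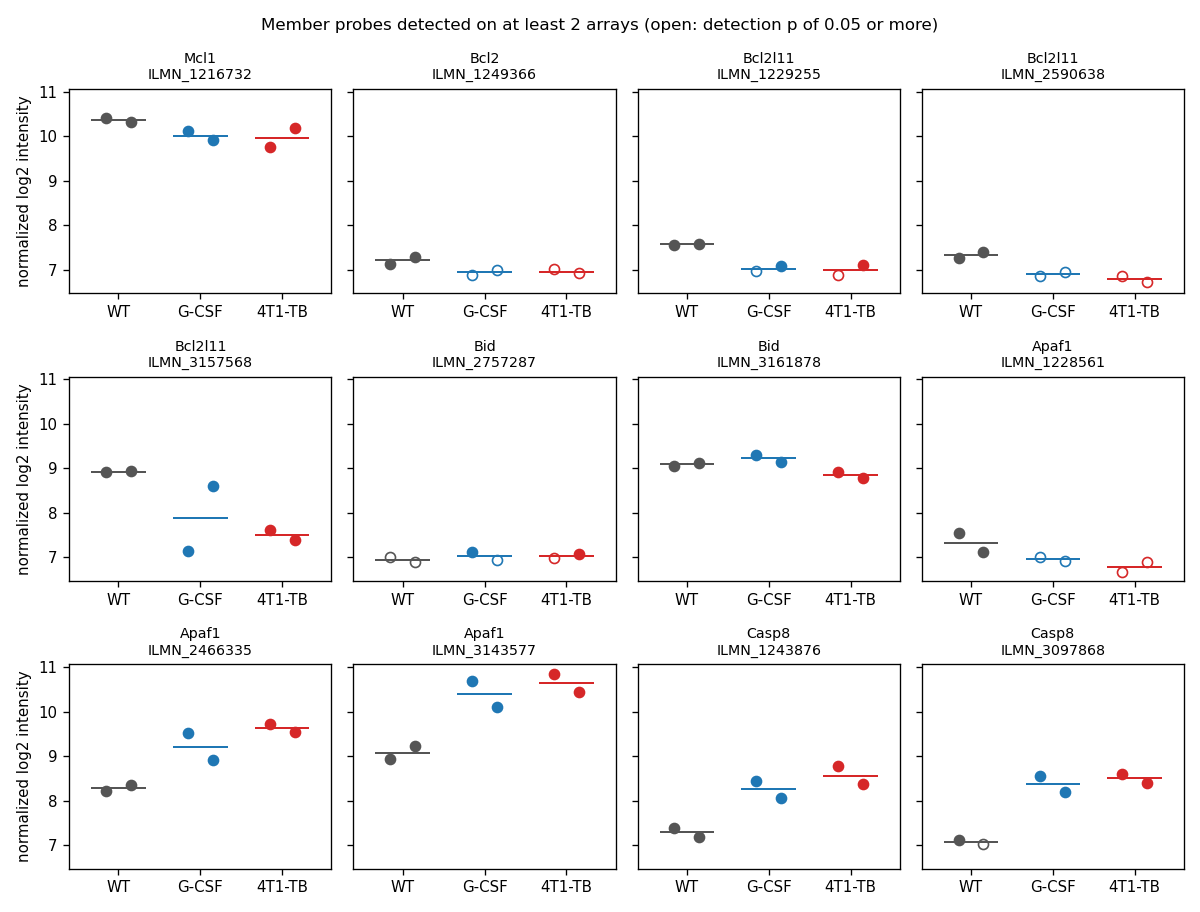
Normalized log2 intensity of the 12 detected member probes on each array, 2 per group, with the group mean as a line and open points where the detection p was 0.05 or more. The 2 brighter Apaf1 probes and both Casp8 probes show the WT points below the rest, the 3 Bcl2l11 probes show them above, and the G-CSF points of ILMN_3157568 lie at 7.15 and 8.60.

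**Figure D4:**
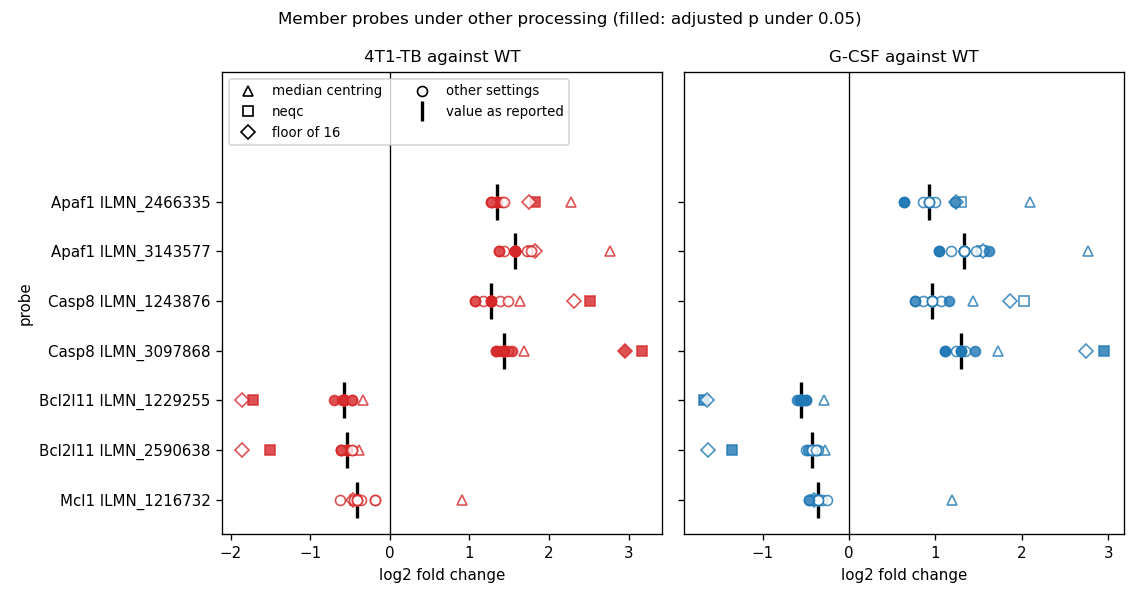
Log2 fold change against WT of the 6 called member probes and Mcl1 under 15 alternative settings, with the reported value as a bar and filled symbols where the adjusted p was under 0.05. The called probes stay on their side of 0 under every setting, while the triangles of median centring put Mcl1 at 0.91 and 1.19.

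In the direct comparison of 4T1-TB with G-CSF cells, 0 member probes passed an adjusted p under 0.05 in limma, where 0% of all probes passed. At an unadjusted p under 0.05, 2 member probes differed (3.13% of all probes), the brighter probe of Bid and a probe of Bcl2l1 near background. By the 2-fold criterion 0 member probes passed, beside 0.0751% of all probes. Arrays did not overlap for 3 higher and 5 lower member probes (30.4% of all and 24.6% of detected probes). Without G-CSF replicate 1, the log2 difference was -1.09 for ILMN_3157568 of Bcl2l11 and 0.72 for ILMN_2466335 of Apaf1. These values rest on a single G-CSF array, on which the Bcl2l11 probe lay close to WT. The 95% confidence interval of this difference is given above for each called member probe.

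Of 42 other genes of the pathway, 36 had a probe and 24 a detected one. With the probe of highest mean per gene, 7 rose and 5 fell in 4T1-TB against WT, and 2 rose and 5 fell in G-CSF, by adjusted p under 0.05. Over all probes 5.49% and 4.53% passed in these comparisons, and over the detected probes 21.5% and 17.8%. As the brightest probe per gene was taken, the detected share is the closer one. Their median log2 fold change was 0.02 and 0.06. These 19 changes kept their direction with median centring, neqc and the floor of 16. The other alternatives could not turn it, since the arrays of the groups did not overlap for these genes. With median centring, however, 0 of the 36 genes passed in either comparison. With the floor of 16, 1 rose and 2 fell in 4T1-TB and 1 rose and 3 fell in G-CSF. The numbers also moved in fits that leave 1 array in a group. Fewer genes rose in either comparison without a WT array, and fewer in 4T1-TB without a 4T1-TB array. More rose in G-CSF without G-CSF replicate 2, and more in both comparisons without both arrays of high erythroid genes. Several encode proteins of the mitochondrion itself. Diablo, which encodes the SMAC protein that is released with cytochrome c and counters the inhibitor of apoptosis proteins, was at 7.28 and 7.26 in WT, 9.12 and 8.71 in G-CSF and 8.82 and 9.04 in 4T1-TB. All 4 arrays of the treated and tumor-bearing groups lay above WT, by log2 1.65 in 4T1-TB (adjusted p = 0.00406) and 1.64 in G-CSF (adjusted p = 0.00437).
Htra2, a mitochondrial serine protease that is also released, was at 8.05 and 8.11 in WT, 6.96 and 6.98 in G-CSF and 6.88 on both 4T1-TB arrays. It was not detected outside WT and was at least 2.05-fold lower (adjusted p = 0.000661) in 4T1-TB cells and at least 2.07-fold lower (adjusted p = 0.000821) in G-CSF cells. Another probe of the gene, likewise detected in WT alone, was at least 1.48-fold lower (adjusted p = 0.11) in 4T1-TB cells and at least 1.5-fold lower (adjusted p = 0.154) in G-CSF cells without passing, and the third, near background, did not pass either (adjusted p = 0.79 and 0.884).
The 3 voltage-dependent anion channels of the outer membrane moved in different directions. In 4T1-TB Vdac1 and Vdac2 rose by log2 1.05 and 0.87 and Vdac3 fell by 1.10, and in G-CSF Vdac2 rose by 0.88, Vdac3 fell by 1.03 and Vdac1 had a difference of 0.75 that missed the threshold (adjusted p = 0.0513). Cycs, cytochrome c itself, was not detected in WT and was at least 1.49-fold higher in 4T1-TB (adjusted p = 0.0143). In G-CSF it was at least 1.28-fold higher without passing (adjusted p = 0.0636).
Among regulators, Pmaip1, the BH3-only gene whose product NOXA binds MCL-1, was at 7.67 and 7.73 in WT, 6.99 and 6.87 in G-CSF and 6.95 and 6.86 in 4T1-TB. It was detected in WT alone and was at least 1.57-fold lower (adjusted p = 0.00383) in 4T1-TB cells and at least 1.59-fold lower (adjusted p = 0.00437) in G-CSF cells. Huwe1, a ubiquitin ligase that acts on MCL-1, was at 7.61 and 7.87 in WT, 6.76 and 6.78 in G-CSF and 6.63 and 6.89 in 4T1-TB. It likewise left the detected range, at least 1.61-fold lower (adjusted p = 0.0116) in 4T1-TB cells and at least 1.63-fold lower (adjusted p = 0.0123) in G-CSF cells.
Birc5, which encodes survivin, a protein of mitosis and of the inhibitor of apoptosis family, was at 6.98 on both WT arrays, 7.48 and 7.19 in G-CSF and 8.83 and 8.47 in 4T1-TB. It was at least 2.99-fold higher in 4T1-TB than in WT (adjusted p = 0.00406). In G-CSF it was by group means at least 1.2-fold higher without passing (adjusted p = 0.39, interval of the log2 change -0.01 to 0.73). The difference of 1.31 between 4T1-TB and G-CSF was the only one of the 36 genes past the 2-fold criterion there, with an adjusted p of 0.684, and a further detected probe of the gene changed by -0.11 in 4T1-TB.
On the death receptor side, Tnfrsf1a, the main receptor of TNF, was at 9.76 and 9.31 in WT, 7.02 and 6.86 in G-CSF and 6.92 and 7.05 in 4T1-TB. It was at background in both groups, at least 5.62-fold lower (adjusted p = 0.00143) in 4T1-TB cells and at least 5.68-fold lower (adjusted p = 0.00139) in G-CSF cells. Its other 2 detected probes passed too in 4T1-TB. One was at least 3.87-fold lower than WT (adjusted p = 0.0012) and the other at least 3.91-fold lower than WT (adjusted p = 0.00108). Cflar, whose product FLIP binds caspase-8, rose by log2 0.76 in 4T1-TB (adjusted p = 0.0227), and Casp2, an initiator caspase, by 1.05 (adjusted p = 0.0234). In G-CSF both narrowly missed the threshold in limma, Cflar with log2 0.59 (adjusted p = 0.0592) and Casp2 with log2 0.77 (adjusted p = 0.0709).
The death receptor gene Fas had probes that disagreed. The brightest changed by 0.25 in 4T1-TB and 0.31 in G-CSF and was not called, while another changed by -1.52 and -1.29 and was. Between 4T1-TB and G-CSF 0 of the 36 genes passed the adjusted test, 3 at an unadjusted p under 0.05.

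**Figure D5:**
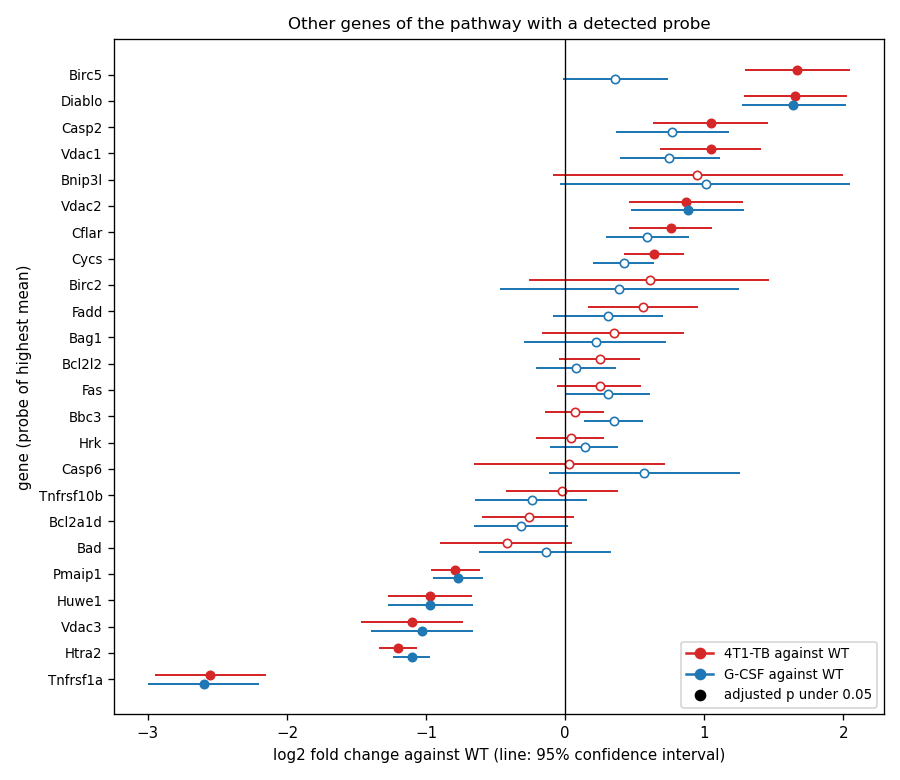
Log2 fold change against WT, with its 95% confidence interval from limma, of the 24 other pathway genes with a detected probe, in 4T1-TB (red) and G-CSF (blue), filled where the adjusted p was under 0.05. Diablo lies near 1.65 in both groups and Tnfrsf1a at -2.55 and -2.60, while Birc5 lies at 1.67 in 4T1-TB and 0.36 in G-CSF.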

How the data were processed

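RNA of 6 samples was hybridised to Illumina MouseWG-6 v2 arrays. The authors deposited an intensity and a detection p-value per probe, exported from GenomeStudio, and normalized log2 values, made per their methods with lumi and quantile normalization. Their methods name background subtraction, but deposited intensities start at 85.3 to 91.8, so the background is still in them and shrinks changes of dim probes. Log2 and quantile normalization of the intensities matched the deposited log2 values with a largest difference of 4.99e-09. In the intensity table an array of G-CSF and an array of 4T1-TB bear no number and were taken as replicate 1, since the other of the group is numbered 2.

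The deposited log2 values of all 45281 probes were fitted in limma (version 3.58.1, R version 4.3.3) with 1 mean per group, 3 contrasts and moderated variances (3 residual and 5.59 total degrees of freedom), with Benjamini-Hochberg adjustment over all probes and a threshold of 0.05. The criterion of 2-fold with P under 0.01 follows the paper. Genes came from the array annotation, in which 34885 probes have 1 gene, 18 several and 10378 none. Where neither array of a group detected a probe that the other group did, the text gives a bound (at least so many fold), computed with each array's lowest detected signal wherever the probe lay below it. This bound is taken from group means and leaves out the spread of the arrays, so by itself it does not exclude a smaller change or none. With 2 arrays per group the median 95% confidence interval of detected probes was ± 0.29 on the log2 scale.

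Values per array are given for called probes and for the detected probe of highest mean of each member. For 2 of these the 3 nearest genes by root mean square distance are named, and for other pathway genes up to 6 with the lowest adjusted p. Further pathway genes and probes were named after their values were seen. The members and lists were chosen with earlier results of these data known. The alternatives, 14 fixed and 1 added after seeing the data, were own quantile normalization, median centring, neqc (offset 16), a floor of 16 after subtraction of percentile 1, detected probes only, the replicate block, a trended and robust prior, the 4 arrays compared, and leaving out arrays. The code was tested on simulated data.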

Additional observations from a re-analysis of the deposited data

Results flagged for a closer look

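The brighter probe of Bid (ILMN_3161878) stood out because both G-CSF arrays lay above and both 4T1-TB arrays below the WT arrays in the normalized values. With median centring both groups were above WT, the G-CSF group by 1.54 and the 4T1-TB group by 0.89. The difference between 4T1-TB and G-CSF was -0.38 on the log2 scale. It had an unadjusted p of 0.00356 and an adjusted p of 1 in limma. The dimmer probe of the gene differed by 0.00 (interval -0.21 to 0.21).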

How the results depend on the processing

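The 2 arrays per group limit all results. Over 15 alternatives, the 10 changes against WT of called member probes kept their direction in all 150 values. Their calls were lost mainly with median centring, with the floor of 16 and without a WT array. Median centring left 0 member probes past the adjusted test in each comparison with WT, and 35 and 112 of all probes in 4T1-TB and G-CSF (2486 and 2053 as reported). The floor of 16 left 1 and 1 member probes and 624 and 639 of all probes. With only the 4 arrays compared, 7 member probes and 5126 of all probes passed in 4T1-TB, and 2 member probes and 1376 of all probes in G-CSF. By the 2-fold criterion 4 member probes passed in G-CSF with median centring and 6 with neqc, against 2. A trended and robust prior called 1 of all probes between 4T1-TB and G-CSF. Without the 2 arrays of high erythroid genes, 2 member probes passed by adjusted p and 1 by the 2-fold criterion between 4T1-TB and G-CSF, and 4695, 3497 and 1554 of all probes passed in 4T1-TB against WT, G-CSF against WT and 4T1-TB against G-CSF.

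Leaving out 1 array in turn, with a lone array assumed to vary like the other groups, gave 0 to 7 member probes past the adjusted test in 4T1-TB, 0 to 7 in G-CSF and 0 to 2 between them, 4 to 5, 1 to 5 and 0 to 1 by the 2-fold criterion, and 729 to 5126, 694 to 5089 and 0 to 1310 of all probes. Same-numbered arrays did not deviate together in every pair of groups. The r of their deviations was 0.02 and -0.02 between WT and the other groups and 0.24 between G-CSF and 4T1-TB, whose replicate 1 arrays both had high erythroid genes. The labels tie no number to an experiment, so the numbers were not taken as pairs. With the replicate block, 6, 3 and 0 member probes passed.

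Uncalled values that changed sign did so as follows. With median centring, Mcl1 was 0.91 in 4T1-TB (-0.62 to -0.19 without 1 array) and 1.19 in G-CSF (-0.47 to -0.26 without 1 array). Bid ILMN_3161878 was 0.89 in 4T1-TB with median centring (-0.30 to -0.17 without 1 array), and Casp8 ILMN_3097868 was -0.03 between 4T1-TB and G-CSF. With the floor of 16, Bid ILMN_2757287 was 0.03 between them. Without both arrays of high erythroid genes, Mcl1 was 0.28, Bcl2 -0.08, Bcl2l11 ILMN_1229255 0.03 and Bid ILMN_2757287 0.14 between them (and 0 in G-CSF against WT). Without 1 array the difference between 4T1-TB and G-CSF ran from -0.26 to 0.17 for Mcl1, -0.03 to 0.07 for Bcl2, -0.14 to 0.09 for Bcl2l11 ILMN_1229255, -1.09 to 0.35 for ILMN_3157568, -0.09 to 0.09 for Bid ILMN_2757287 (0 to 0.18 in G-CSF against WT), -0.04 to 0.53 for Apaf1 ILMN_3143577 and -0.03 to 0.32 for Casp8 ILMN_3097868. The cause was not tested.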
